A study of Flaveria ramosissima and Flaveria robusta and Flaveria sonorensis with 9 samples.

Results

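Leaf transcript abundance was compared between Flaveria sonorensis, a Type I C3-C4 species, and Flaveria robusta, a C3 species, both grown at the control CO2 level. The comparison used the 3 numbered libraries of each species and the 10965 gene IDs, of 29566 in the table, whose mean was 1 TPM or more in both species and whose ID occurred once. TPM expresses the abundance of a transcript relative to all transcripts of its library, and each ID is called a row here. The plants of both species were kept at a CO2 level labelled 380 (written in the labels in the unit of light intensity), a light intensity of 200 micromoles per square metre per second, 22 °C, 16 h of light and 70% humidity, and newly expanded mature leaves were taken. These conditions are those of the labels, and the study's methods give another light intensity, temperature and humidity for the plants sequenced. The same 2 species had also been kept for 4 weeks at a CO2 level labelled 100, and those 6 libraries, with the low CO2 libraries of Flaveria ramosissima (Type II C3-C4) and Flaveria trinervia (C4), served as libraries that the main comparison does not use. The labels list 1 sample for each species and CO2 level, and neither they nor the study's methods say whether its 3 libraries came from separate plants. The p-values below therefore measure the spread between libraries, which may be technical, and with 1 species for each photosynthetic type, species and type cannot be told apart.

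In C3 leaves Rubisco also reacts with oxygen, and the glycine that follows from this is broken down by glycine decarboxylase in mesophyll mitochondria, where part of the released CO2 is lost. In Type I C3-C4 leaves glycine decarboxylase activity is largely restricted to the bundle sheath, so that glycine moves there and its CO2 is released next to bundle sheath Rubisco, where it can be fixed again. This glycine shuttle is regarded as a step between C3 and C4 photosynthesis, and Type II C3-C4 plants add a partial C4 cycle to it. The table pairs its IDs with no gene names, and 0 of the 24 members of the photorespiration, C4 shuttle, Calvin-Benson and light harvesting lists matched an ID. Levels of these genes, leaf markers included, are therefore not analysed here, no sequence is shown, and the results describe rows by level, size of difference and behaviour in other libraries.

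The libraries of a species were close to each other. Across the tested rows, the rank correlation between libraries lay between 0.963 and 0.983 within F. robusta and between 0.977 and 0.984 within F. sonorensis, against 0.732 to 0.760 between the species. The median coefficient of variation of a row over the 3 libraries was 13.9% in F. robusta and 11.7% in F. sonorensis. TPM keeps no read numbers, so the depth is unknown. Reads of each species were aligned to its own genome, and no source used here states how rows were paired between the genomes, so the part of row pairing in the differences below was not tested.

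The first difference between the species lay in how transcript abundance was spread over rows. In F. robusta the 10 most abundant rows of a library held 21.5%, 22.6% and 21.6% of the total to which TPM is scaled. The same number of rows held 14.2%, 15.5% and 14.6% in F. sonorensis. The 100 most abundant rows held 50.01%, 50.72% and 50.97% in the F. robusta libraries. In those of F. sonorensis they held 33.7%, 35.5% and 34.4%. All libraries of F. robusta thus lay above all libraries of F. sonorensis, and the means differed by 16.0 percentage points (50.6% ± 0.500 against 34.5% ± 0.884, SD, n = 3 libraries, exact permutation test, two-sided p = 0.1, the smallest that 3 against 3 libraries allow). The 1000 most abundant rows held 74.9% ± 0.323 and 61.5% ± 1.05 (exact permutation p = 0.1). Of 5 values per library given this exact permutation test (these 3, the number of rows at 1 TPM or more and the table total), each had p = 0.1, also after Benjamini-Hochberg adjustment. The rows of the table summed to 92.2% ± 0.108 of the TPM scale in F. robusta and 86.6% ± 0.0579 in F. sonorensis, and the transcripts that make up the rest are not analysed here. With the libraries rescaled to the same table total, their mean, the difference for the 100 most abundant rows (F. sonorensis minus F. robusta) was -13.4 points of the TPM scale. As a share of each library's own table total, these rows held 54.3%, 54.9% and 55.3% in F. robusta. In F. sonorensis they held 39.0%, 41.0% and 39.7% of it. Among the rows of the table, abundance in F. sonorensis was thus less concentrated in the most abundant ones, with a median tested row at 14.5 to 16.0 TPM against 8.61 to 9.28 TPM in F. robusta.

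**Figure D1:**
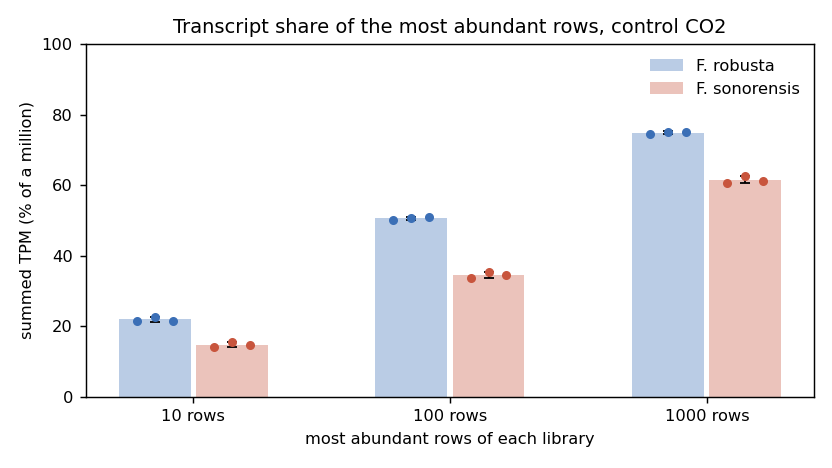
Summed TPM of the 10, 100 and 1000 most abundant rows of each library at control CO2, as a percentage of the TPM scale. Points are the 3 libraries of a species, bars their mean and error bars the SD. F. robusta lies above F. sonorensis in each of the 3 sets, with means of 50.6% and 34.5% for the 100 most abundant rows.

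The most abundant rows were in part shared. Of the 10 most abundant rows of each species 5 were common to both (50% of each list), and of the 100 most abundant 53 (53% of each list). The row ranked first in F. sonorensis had a mean of 36920 TPM there and 36320 TPM in F. robusta, where it ranked second, a similar deposited level in both species. The 10 most abundant rows of F. robusta differed from this pattern in 5 cases, which were called lower in F. sonorensis, and their ratio of means (F. robusta over F. sonorensis) lay at 1.89, 5.41, 8.07, 11.3 and 267. The other 5, which are the shared ones, had ratios between 0.888 and 1.22 and were not called as deposited. After the median-ratio scaling described below, all 10 were called lower in F. sonorensis. Of the 100 most abundant rows of F. robusta 81 were tested, and 75 were called lower after scaling and 53 as deposited. Over all tested rows 36.3% and 13.8% were called lower. Of the 100 most abundant rows of F. sonorensis 89 were tested, and 15 were called higher after scaling and 45 as deposited. Over all tested rows 27.8% and 63.6% were called higher. Choosing rows by their level in a species favours calls with that species higher. Rows called lower in F. sonorensis together lost 251175 TPM, of which the 10 largest losses made up 50.6%, while rows called higher gained 241735 TPM. The losses were thus concentrated in few rows, with 39 called rows losing over 1000 TPM and 19 gaining as much.

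As TPM values are shares of a library, a loss in some transcripts is by construction a gain in others, inside or outside the table. The comparison was therefore made on 2 scales, and the part of this in the calls below was not tested. As deposited, F. sonorensis was called higher in 6971 rows and lower in 1509 (limma on log2(TPM + 1), Benjamini-Hochberg adjusted p below 0.05), which is 63.6% and 13.8% of the rows tested. Median-ratio scaling divides each library by the median ratio of its rows to their geometric mean over the 6 libraries. The factors were 0.703 to 0.777 in F. robusta and 1.32 to 1.42 in F. sonorensis, a gap of 1.89-fold between the species. On this scale 3052 rows were called higher and 3984 lower, 27.8% and 36.3% of the rows. The share of higher rows among the calls therefore went from 82.2% to 43.4%, and the median log2 difference of all tested rows (F. sonorensis minus F. robusta) from 0.72 to -0.094. Changes are best read relative to this shift. The middle 50% of the rows lay between 0.08 and 1.28 as deposited and between -0.73 and 0.48 after scaling, with a median standard error of 0.15 on each scale (0.152 and 0.146).

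Calls on both scales followed from this shift. All 1509 rows called lower as deposited were also called lower after scaling, and all 3052 rows called higher after scaling were also called higher as deposited. In between, 3350 rows called higher as deposited were not called after scaling, and 569 changed direction, all with log2 differences from 0.25 to 0.63 as deposited. The 3 libraries of F. sonorensis lay above all 3 of F. robusta in 7082 rows and below them in 1607 as deposited (64.6% and 14.7%), and in 3370 and 4303 rows after scaling (30.7% and 39.2%).

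The direction of the difference varied with the level of the row. Among the 91 rows with a mean of over 1000 TPM over both species, 30 were called higher and 43 lower as deposited, and 9 higher and 70 lower after scaling, which is 76.9% of them. Their median log2 difference was -0.30 as deposited and -1.21 after scaling. In the 941 rows under 3 TPM the median was 0.41 as deposited and -0.19 after scaling, with 80 rows higher and 240 lower after scaling. In the 3616 rows between 3 and 10 TPM the medians were 0.82 and 0.06, with 1173 rows higher and 1110 lower after scaling. From there the scaled median fell with level but for the last step below 1000 TPM, from -0.06 in the 3552 rows of 10 to 30 TPM to -0.20 at 30 to 100 TPM, -0.40 at 100 to 300 TPM and -0.39 in the 255 rows of 300 to 1000 TPM. Abundant leaf transcripts were therefore lower in F. sonorensis than in F. robusta relative to the typical row. The size of the difference was also largest there. The median absolute log2 difference after scaling was 1.23 in the rows over 1000 TPM and 0.60 in those of 3 to 10 TPM. The 1.23 stands beside a median of -1.21 in the same rows. The minimum of 1 TPM in each species and the 1 TPM added before log2 also limit the size that low rows can show. At low CO2 the rows over 1000 TPM again had a median of -1.27 after scaling, and those of 3 to 10 TPM of 0.02. The bins from 100 to 300 and 300 to 1000 TPM had -0.29 and -0.10, the latter against -0.39 at control CO2.

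**Figure D2:**
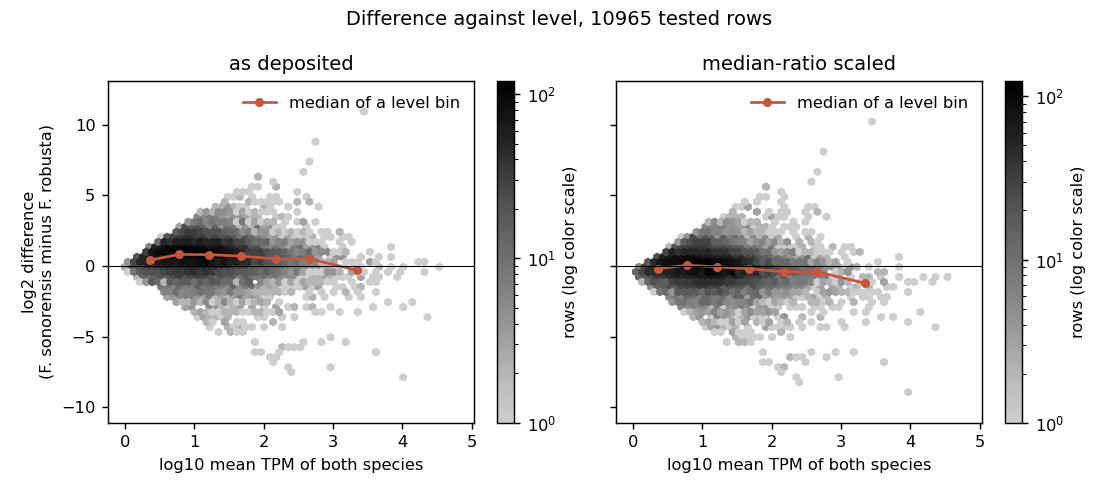
Log2 difference of each tested row (F. sonorensis minus F. robusta, log2(TPM + 1)) against the log10 of its mean TPM over both species, as deposited and after median-ratio scaling, with the number of rows as grey level. Red points are medians of the 7 level bins. They lie above 0 as deposited except for rows over 1000 TPM (-0.30), and after scaling they go from 0.06 at 3 to 10 TPM to -1.21 over 1000 TPM.

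A set of rows differed in the same direction and by at least 2-fold on both scales. As deposited 4023 rows were at least 2-fold higher and 748 at least 2-fold lower among the calls (36.7% and 6.82%), and after scaling 1223 and 2003 (11.2% and 18.3%). The rows in common were the 1223 higher ones after scaling and the 748 lower ones as deposited. This follows from the shift between the scales, so their agreement is no separate support. They are used below as the rows with a 2-fold difference on these 2 scales, and other scales can remove some of them. With each library rescaled to the same total, 676 rows in all were at least 2-fold lower. Larger differences were less frequent, with 924 rows at least 4-fold higher and 255 at least 4-fold lower as deposited, and 284 and 610 after scaling. At 16-fold or more there were 51 higher and 38 lower as deposited, and 23 and 81 after scaling.

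The levels of these rows in the 8 samples were compared after median-ratio scaling over all 24 libraries. The 1223 higher rows had a median level of 3.40 TPM in F. robusta and 12.9 TPM in F. sonorensis at control CO2, against 8.94 and 8.40 TPM over all tested rows. The library medians of these rows lay between 3.15 and 3.77 TPM in F. robusta and between 12.9 and 13.1 in F. sonorensis. In F. ramosissima and F. trinervia their median was 7.04 and 7.46 TPM at control CO2, against 8.88 and 7.99 TPM over all tested rows. Both medians of these rows lay between the levels of the 2 species that defined them. The 748 lower rows went the other way, with a median of 31.1 TPM in F. robusta and 4.09 TPM in F. sonorensis, and of 15.5 TPM in F. ramosissima and 9.19 TPM in F. trinervia. F. robusta and F. sonorensis chose these rows, so their own levels at control CO2 are a description. Such a choice makes a position of the other species between them likely, and that position was not tested. Some of the rows were listed at 0 in every control library of another species, with 58 of the higher and 29 of the lower rows in F. ramosissima and 77 and 68 in F. trinervia.

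**Figure D3:**
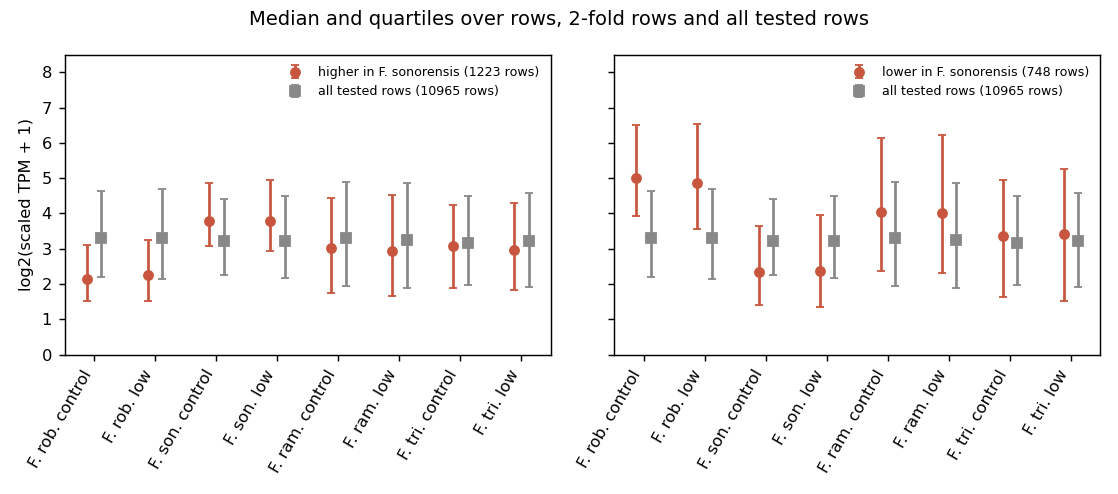
Median and quartiles over rows of log2(scaled TPM + 1) in the 8 samples, for the 1223 rows higher (left) and the 748 rows lower (right) in F. sonorensis by at least 2-fold on both scales, with all 10965 tested rows in grey. The higher rows have medians of 3.40 TPM in F. robusta and 12.9 TPM in F. sonorensis at control CO2. In F. ramosissima and F. trinervia they are 7.04 and 7.46 TPM, against 8.88 and 7.99 TPM over all tested rows.

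For libraries outside the control comparison, F. ramosissima and F. trinervia were each set against F. robusta at low CO2. Both comparisons share the F. robusta low CO2 libraries, and their values are given side by side. After scaling, 661 of the 1223 higher rows (54.0%) were called higher in F. trinervia than in F. robusta, where 30.4% of all tested rows were, and 260 were called lower. In F. ramosissima 604 (49.4%) were called higher, against 30.7% of all tested rows, and 244 lower. Of the 748 lower rows, 523 (69.9%) were called lower in F. trinervia and 432 (57.8%) in F. ramosissima, where the background was 39.3% and 36.5%. As deposited the higher rows were called higher in 59.0% in F. trinervia (36.5% of all rows) and in 32.1% in F. ramosissima (16.2% of all rows), where 424 of them were called lower. The lower rows were called lower in 65.5% (32.4%) and 71.7% (56.2%). The rows had been chosen in part by their level in F. robusta, which is again on the other side here. The share over all tested rows is therefore not the value to be had without a relation to F. sonorensis, and these shares are a description. F. ramosissima held 362 and F. trinervia 534 of the tested rows at 0 in each low CO2 library.

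Among the single rows, the rule named 2 IDs higher and 2 lower in F. sonorensis, which were called on both scales. In each direction, the first had the largest log2 difference among rows with at least 10 TPM in each species and the second the largest difference in TPM. Their names and functions are not known from the table. As they were chosen by size in the control libraries of F. robusta and F. sonorensis, their separation and p-values there are a description.

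Gene13280 had 20.4, 15.6 and 13.8 TPM in the libraries of F. robusta and 627, 555 and 665 TPM in those of F. sonorensis. The groups were far apart, with means of 16.6 ± 3.40 and 616 ± 55.6 TPM (SD, n = 3 libraries), a ratio of 37.2. The log2 difference was 5.15 (SE 0.15, limma adjusted p = 1.26e-07) as deposited and 4.25 (SE 0.13, limma adjusted p = 3.75e-07) after scaling. At control CO2 the row was also high in F. trinervia (342, 323 and 383 TPM) and low in F. ramosissima (11.4, 14.8 and 3.51 TPM). Its level thus separated F. sonorensis and F. trinervia from F. robusta and F. ramosissima, in all 12 control libraries. At low CO2 the log2 difference (F. sonorensis minus F. robusta) was 5.65 as deposited (limma adjusted p = 1.94e-08).

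Gene09817 had 4081, 3457 and 3754 TPM in F. robusta and 9925, 10617 and 10318 TPM in F. sonorensis. It was the fifth most abundant row of F. sonorensis and ranked 36 in F. robusta, with a ratio of means of 2.73. The log2 difference was 1.45 (SE 0.10, limma adjusted p = 4.47e-06) as deposited and 0.54 (SE 0.12, limma adjusted p = 0.00419) after scaling, so its size turned on the scale. F. trinervia had 4651, 4847 and 5100 TPM at control CO2, nearer to F. robusta, and F. ramosissima was listed at 0 in each of its 6 libraries.

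Gene17659 had 19471, 22095 and 18365 TPM in F. robusta and 68.7, 76.9 and 78.9 TPM in F. sonorensis, a ratio of means of 267. It ranked 6 in F. robusta and 1540 in F. sonorensis, and the log2 difference was -8.04 (SE 0.11, limma adjusted p = 5.95e-09) as deposited and -8.95 (SE 0.13, limma adjusted p = 2.56e-08) after scaling. F. ramosissima had 10743, 16293 and 11719 TPM and F. trinervia 7613, 9112 and 7509 TPM at control CO2. F. sonorensis was therefore the species that stood apart in this row, below every control library of the other 3 species by more than the spread within any of them. At low CO2 it had 65.0, 85.0 and 53.0 TPM, and F. robusta had 16988, 18016 and 21964 TPM.

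Gene14178 was the most abundant row of F. robusta, with 38681, 36121 and 41041 TPM against 3437, 3480 and 3311 TPM in F. sonorensis. Its mean was 38610 ± 2460 TPM in F. robusta, or 3.86% of the TPM scale, and 3409 ± 87.8 TPM in F. sonorensis, or 0.341%. The log2 difference was -3.50 (SE 0.09, limma adjusted p = 7.63e-08) as deposited and -4.42 (SE 0.12, limma adjusted p = 2.4e-07) after scaling. F. trinervia had 26165, 29038 and 28297 TPM and F. ramosissima 18623, 19484 and 43147 TPM at control CO2, so F. sonorensis again lay below every library of the other 3 species. The highest of these F. ramosissima values came from its library 3, which stood apart from the other 2.

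**Figure D4:**
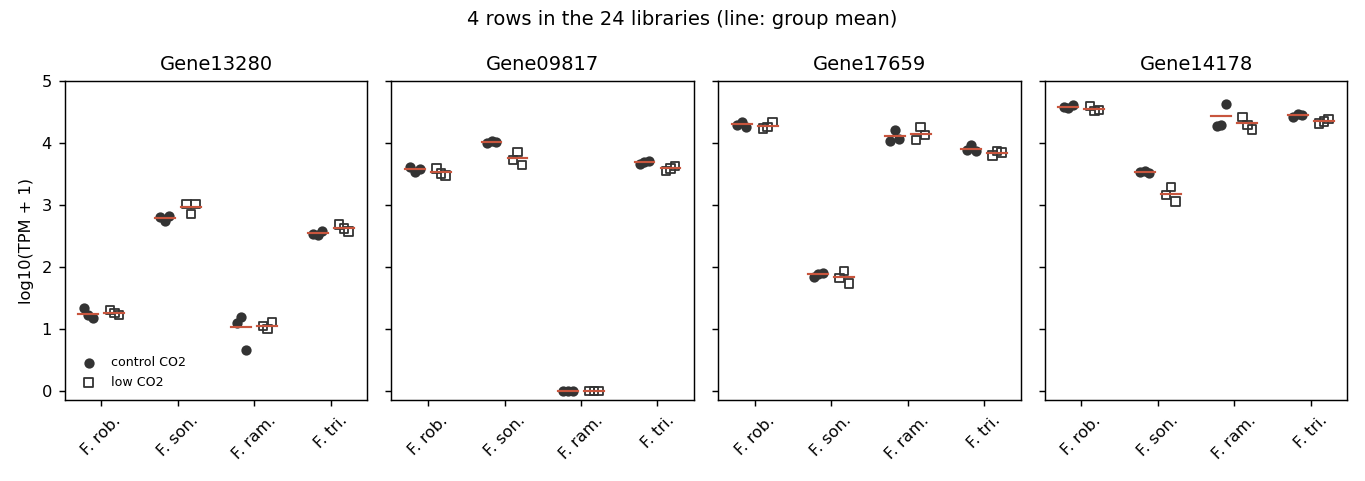
Log10(TPM + 1) of the 4 named rows in the 24 libraries of the table, by species, with filled circles for control CO2, open squares for low CO2 and a red line at each group mean. Gene13280 is high in F. sonorensis and F. trinervia, while Gene17659 and Gene14178 are lowest in F. sonorensis (74.8 and 3409 TPM on average at control CO2).

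Beyond the named rows, the 20 largest log2 differences among higher rows lay between 4.85 and 11.1, with a median of 2.34 TPM in F. robusta and 260 TPM in F. sonorensis. The 20 largest among lower rows lay between -8.04 and -5.19, with a median of 445 TPM in F. robusta and 5.91 TPM in F. sonorensis. In all of these the libraries of the species did not overlap, and all were called the same way after scaling. Their choice by size in the same libraries made both likely. Of all tested rows, 64.6% lay above and 14.7% below without overlap as deposited. At low CO2 these rows were all called the same way again, against 61.4% of all tested rows called higher and 14.5% lower as deposited. The 20 largest gains in TPM were less uniform, since 13 were called higher after scaling and 16 at low CO2 as deposited, while the 20 largest losses, from 2068 to 35200 TPM, were called lower in each of these.

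Rows listed at 0 in 1 species were left out of the tests and hold a share of the transcripts. A listed 0 can also come from a row that was not paired between the genomes, and does not show that a transcript was absent. At control CO2 2172 rows had at least 1 TPM in F. robusta and were listed at 0 in all F. sonorensis libraries, and together held 12.1% of the TPM scale. The reverse was seen for 1793 rows, which held 5.02% in F. sonorensis. Of the first group 22 rows reached 1000 TPM, the highest at 8531 TPM, and of the second 6, the highest at 7155 TPM. The 100 most abundant rows of F. robusta included 19 that were listed at 0 in F. sonorensis, and the 100 of F. sonorensis included 5 at 0 in F. robusta. Most were also at 0 in the same species at low CO2, with 2156 of the 2172 in F. sonorensis and 1729 of the 1793 in F. robusta. The tests also left out 1856 rows above 0 in both species but under 1 TPM in F. robusta only, with 2.93% in F. sonorensis. Under 1 TPM in F. sonorensis only were 296 such rows, with 0.293% in F. robusta.

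In the other species, 33.7% of the 2172 rows and 22.4% of the 1793 had at least 1 TPM in both F. ramosissima and F. trinervia at control CO2, against 79.5% of the tested rows. At 0 in both of these species were 9.39% and 16.8%, against 0.793% of the tested rows. No fold is given against a species listed at 0. The minimum of 1 TPM did not fall at a gap in the values, as 171 rows had a lower species mean of 1 to 1.1 TPM and 176 of 0.9 to 1 TPM, with the rows nearest to it at 1 TPM inside and 0.997 TPM outside. The number of rows at 1 TPM or more was 13646, 13340 and 13080 in F. robusta. It was 14492, 14513 and 14594 in F. sonorensis, without overlap (exact permutation p = 0.1). At a minimum of 0.1 TPM the order turned over, with 716 fewer rows on average in F. sonorensis.

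The same contrast was then made at low CO2, with 6 other libraries and the same 10965 rows. As deposited F. sonorensis was higher in 6728 called rows and lower in 1585 (61.4% and 14.5%), and after scaling 3164 and 3976 (28.9% and 36.3%). Of the 6971 rows called higher at control CO2, 5943 (85.3%) were called higher again and 77 were called lower. Of the 1509 rows called lower, 1108 (73.4%) were called lower again and 69 higher. After scaling 72.9% of the higher and 77.1% of the lower rows were called in the same direction. For the rows at least 2-fold different on both scales these shares were 88.2% of the 1223 and 93.7% of the 748 after scaling, and 96.8% and 86.0% as deposited. Their median log2 difference at low CO2 was 1.42 and -2.33 after scaling, against -0.08 over all tested rows. Across rows, which are not independent, the differences at the 2 CO2 levels had a Pearson r of 0.849 after scaling and 0.851 as deposited (Spearman 0.811 and 0.813). Row pairing and genome are common to both CO2 levels, so transcript abundance and row pairing cannot be told apart by this comparison.

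**Figure D5:**
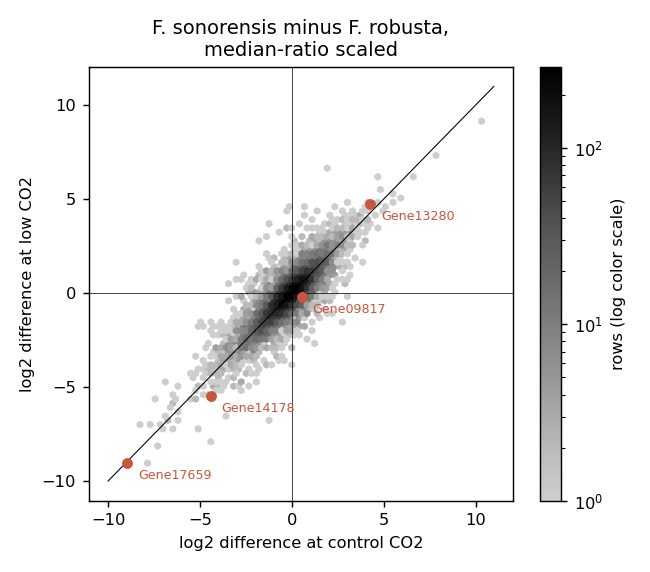
Log2 difference (F. sonorensis minus F. robusta, median-ratio scaled) of the 10965 tested rows at control CO2 (horizontal) and low CO2 (vertical), with the number of rows as grey level, the line of equal values and the 4 named rows in red. The points lie along the line (Pearson r 0.849 across rows), with Gene14178 below it.

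The difference between the species depended on CO2 in part of the rows. A limma model of the 12 libraries called 1753 rows with a species difference that itself differed between the CO2 levels (adjusted p below 0.05, 16.0% of the rows, and 3320 rows at an unadjusted p below 0.05). The difference, F. sonorensis minus F. robusta, was shifted upward at low CO2 in 933 rows (8.51%) and downward in 820 (7.48%). By the signs of the estimates it widened in 738 rows, narrowed in 492 and changed sign in 523, of which 146 were called in opposite directions at the 2 levels. After scaling there were 2102 such rows (19.2%), 1157 shifted upward (10.6%) and 945 downward (8.62%). Without F. robusta control library 2 the count as deposited was 1089.

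Among the named rows the CO2 dependence was called for 2. Gene14178 fell in F. sonorensis from 3409 ± 87.8 to 1517 ± 417 TPM at low CO2 (1453, 1963 and 1135 TPM) and was 35400 ± 3760 TPM in F. robusta, so that the log2 difference went from -3.50 to -4.57 (change of -1.08, SE 0.23, limma adjusted p = 0.00866, and 0.0211 after scaling). Gene09817 was at 5634 ± 1410 TPM in F. sonorensis at low CO2 (5280, 7189 and 4432 TPM) and at 3371 ± 457 TPM in F. robusta, and the log2 difference went from 1.45 to 0.72 (change of -0.73, SE 0.23, limma adjusted p = 0.0449, and 0.0663 after scaling). After scaling, Gene09817 was not called between the species at low CO2 (log2 difference -0.19, limma adjusted p = 0.494). For Gene13280 and Gene17659 the change with CO2 was 0.50 and -0.09 (limma adjusted p = 0.182 and 0.829).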

How the data were processed

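Leaf mRNA was sequenced with 150 bp paired-end reads. Per the study's methods, the authors aligned reads to the genome of each species with STAR and estimated abundance with RSEM, which apportions a read that fits several copies of a gene, so near-identical copies are uncertain. The submitters' processing notes also name edgeR, with no role given. The deposited values are TPM, which keep no depth, so the only measure of precision was the spread between libraries. Each of the 24 columns was matched to its sample through the code in the labels, leaving 0 unused. Of the 29566 rows, 8 were left out because their 4 IDs occur more than once. Values were log2(TPM + 1), which understates changes of low rows, and were compared by limma 3.58.1 (R version 4.3.3) with a trended prior variance, two-sided, at a Benjamini-Hochberg adjusted p of 0.05. Median-ratio factors came from the 12851 rows above 0 in all 6 control libraries. Named IDs were, in each direction, the largest log2 difference at 10 TPM or more in each species without overlap of libraries and the largest difference in TPM among rows called on both scales. On simulated data over 10965 rows, 200 were changed, as many up as down, without a shift between the groups. The same fit, unscaled, recovered 74% of log2 changes of 1 and 93% of changes of 2. The deposited data had a 1.89-fold shift between the species and far more called rows, so these rates may not hold for them. Alternatives covered scaling, pseudocount, minimum TPM, variance trend, library weights, a block by library number and leaving out each library. The rows, lists and tests were chosen with earlier results of these data known.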

Additional observations from a re-analysis of the deposited data

Results flagged for a closer look

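The species difference differed between the CO2 levels, by the limma test of the difference itself, in 1753 rows as deposited. Among the named rows this held for Gene09817, whose log2 difference (F. sonorensis minus F. robusta) was lower by 0.73 at low CO2 (change of -0.73, limma adjusted p = 0.0449, and not called after median-ratio scaling, at 0.0663), and for Gene14178, where the change was -1.08 (limma adjusted p = 0.00866, and 0.0211 after scaling). In Gene09817 the control libraries of F. sonorensis lay between 9925 and 10617 TPM and the low CO2 libraries between 4432 and 7189 TPM, while in F. robusta the libraries of the 2 levels overlapped.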

How the results depend on the processing

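The split between higher and lower calls at control CO2 depended on the scaling of the libraries. The counts were 3052 higher and 3984 lower after median-ratio scaling, 4369 and 2920 after quantile normalization and 4180 and 3024 after upper-quartile scaling. With at least a 2-fold difference these 3 scalings gave 1223 and 2003, 1782 and 1422, and 1754 and 1504. The median log2 difference was -0.094, 0.16 and 0.14 in the same order, 0.80 with each library at the same total (7338 higher, 1386 lower) and 0.43 at the same total without the 100 most abundant rows (5612 higher, 2136 lower). At a pseudocount of 0.1 the median was 0.80. At a pseudocount of 5 it was 0.49, with 2921 rows at 2-fold or more (2390 higher) and 1221 at 2-fold on both scales (690 higher).

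The minimum TPM sets how many rows are tested and so moved the counts. With at least 10 TPM in each species 3504 rows were called as deposited (2772 higher, 732 lower), 1594 at 2-fold or more (1270 and 324), 3139 after median-ratio scaling (854 and 2285) and 566 at 2-fold on both scales (242 and 324), with a median of 0.53. With at least 1 TPM in either species the counts were 14399 (10480 and 3919), 10139 at 2-fold (7097 and 3042) and 12811 after scaling (6310 and 6501). With no minimum they were 15703 (11002 and 4701), 10113 at 2-fold (7086 and 3027) and 14076 after scaling (6708 and 7368), with a median of 0.53. At low CO2 and 10 TPM the counts were 3521 in F. sonorensis (2771 and 750), 3523 in F. ramosissima (845 and 2678), 3383 in F. trinervia (1702 and 1681) and 976 for the dependence on CO2. Median-ratio scaling at low CO2 gave 3164 and 3976 calls in F. sonorensis, and for F. ramosissima 3365 and 3999.

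Leaving out 1 library moved the count of the dependence on CO2 to between 1089 and 1878, the lowest without F. robusta control library 2, and moved the counts of calls at control and low CO2 given above by less than 1.5 times. The dependence on CO2 after scaling, the level bins, the rows at 0 and the shares of the 2-fold rows in the other libraries were not recomputed without single libraries. Of the 1223 higher and 748 lower rows, at least 91.5% and 91.3% kept their call at 2-fold on both scales when any 1 control library was left out. The number of rows per library turned over at a minimum of 0.1 TPM (-716 rows in F. sonorensis) from 1178 at 1 TPM. The 4 named rows kept direction and call in all 19 alternatives, which the rule that chose them favours, and Gene09817 ranged from 0.54 to 2.30. Libraries with the same number did not deviate together (correlations of -0.353, -0.028 and -0.046), and a block by library number gave 8154 calls against 8480. Where counts moved with scaling, the cause was not tested.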
